A study of Mus musculus with 8 samples.

Results

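Lrrc15 and 7 other genes known from activated fibroblasts and myofibroblasts (Fap, Cthrc1, Thy1, Acta2, Tagln, Prrx1 and Twist1) were examined in mouse knee cartilage. They are 8 of the 50462 gene identifiers in the count table. Lrrc15 was selected on its fold change between the groups described here, which ranked 13 among 17760 genes, and the others were listed beside it as genes of the same cell state. Their differences between the groups are therefore given as descriptions, without a test of their own.

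The libraries came from wild-type male C57BL/6J mice, 1 mouse per library, and each held RNA of medial knee cartilage. The 4 naive mice had no operation and were sampled at day 0, aged 11 weeks. The 4 DMM mice, aged 17 weeks at sampling, had the medial meniscus of the left knee destabilised by cutting the ligament that holds it to the tibia, a model of post-traumatic osteoarthritis, and were sampled at day 42. The DMM mice were thus 6 weeks older, and without sham-operated mice the effects of the operation and of age cannot be told apart.

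Fibroblasts that are activated by injury or by growth factors of the TGF-beta family lay down collagen-rich matrix, and some of them, called myofibroblasts, also assemble contractile fibres that contain smooth muscle actin. LRRC15 is a leucine-rich repeat membrane protein that is best known from fibroblasts around tumours and in fibrotic tissue. ACTA2 and TAGLN are shared with the smooth muscle cells and pericytes of blood vessels, and THY1 is shared with T cells, so none of these 3 marks a fibroblast by itself. The other genes of the group were not shown here to be restricted to fibroblasts, and the part of bone cells in their values was not tested.

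The libraries held 12479443 to 16548002 estimated counts each. The defining transcripts of the labelled tissue were present in all 8 libraries, including Col2a1, Acan and Sox9, and of the 9 chondrocyte markers listed Matn1 alone was at 0 in some libraries. The 9 chondrocyte markers together held 0.157% to 0.293% of counts in naive and 0.436% to 0.934% in DMM libraries. Transcripts of bone and marrow were also present: osteoblast and osteocyte markers held 0.127% to 0.181% of counts in naive and 0.298% to 0.551% in DMM libraries, and neutrophil markers 0.813% to 1.14% and 0.380% to 0.802%. Skeletal muscle markers, led by Ttn, held 0.0256% of counts in DMM replicate 1 and at most 0.00332% in the other DMM libraries. Whether these other cells contributed to the values below was not tested.

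Promoter sequences from RefSeq (GRCm38.p6) were at hand for 4 of the 8 genes. The 250 bases before the RefSeq start of Lrrc15 (chr16:30283255-30283504, minus strand) and Acta2 (chr19:34255374-34255623, minus strand) are shown because these genes had the highest and the second highest fold change of the group. GENCODE places the starts elsewhere, so by its coordinates most of the Acta2 window, part of the Prrx1 window and the last bases of the Lrrc15 window lie inside the gene, and positions below are counted from the RefSeq start. Capitals mark the letters of 3 motifs that are the binding words of factors studied in activated fibroblasts: TGANTCA of AP-1, GGAATG of TEAD, and the CArG box of serum response factor, allowing 1 other base among its 6 middle bases. Both strands were searched, and the motifs were chosen after the sequences had been seen.
Lrrc15: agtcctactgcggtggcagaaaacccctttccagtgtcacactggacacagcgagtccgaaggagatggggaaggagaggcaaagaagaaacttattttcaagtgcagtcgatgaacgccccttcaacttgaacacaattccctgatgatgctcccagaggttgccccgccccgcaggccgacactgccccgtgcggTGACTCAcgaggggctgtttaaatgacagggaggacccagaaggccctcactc
Acta2: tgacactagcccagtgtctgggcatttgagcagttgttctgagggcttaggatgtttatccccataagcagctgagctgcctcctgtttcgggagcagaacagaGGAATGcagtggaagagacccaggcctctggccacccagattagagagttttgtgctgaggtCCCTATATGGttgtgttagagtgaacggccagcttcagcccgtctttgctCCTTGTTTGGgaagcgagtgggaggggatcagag

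The Lrrc15 window held the AP-1 word TGACTCA, from base -53 to base -47 before the start, and neither of the other motifs. The Acta2 window held the CArG boxes CCCTATATGG (-84 to -75) and CCTTGTTTGG (-34 to -25) and a TEAD word (-146 to -141). That of Prrx1 held a TEAD word (-180 to -175), and that of Twist1 held none of the 3. Among all 32851 promoters of the table, 6.7% held the AP-1 word, 12.6% the TEAD word and 8.6% the CArG box within the same window. The word CANNTG, which Twist1 and its partners can bind, occurred in the Lrrc15 window at -151 to -146 and in the Acta2 window at -228 to -223, -220 to -215 and -182 to -177, and 66.2% of all promoters also held it. These matches describe letters and were not tested for binding.

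All 8 genes were measured in every library, and all received an adjusted p from DESeq2. A gene was called at an adjusted p of 0.05 or less together with a change of 1.5-fold or more. By this rule 7 of the 8 were called higher in DMM and 0 lower, where 7.75% of the 17760 genes tested were called higher and 5.92% lower. Tagln was not called. The groups did not overlap, with every DMM library above every naive one, for 6 of the 8 genes, compared with 11.9% of all genes tested, while 10.3% were apart in the other direction. The median log2 fold change was 1.32 over the 8 genes and -0.02 over all genes tested. As the genes were chosen with this contrast known, nothing is read from these shares. In bulk tissue, more cells of a type and more RNA per cell cannot be told apart.

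**Figure D1:**
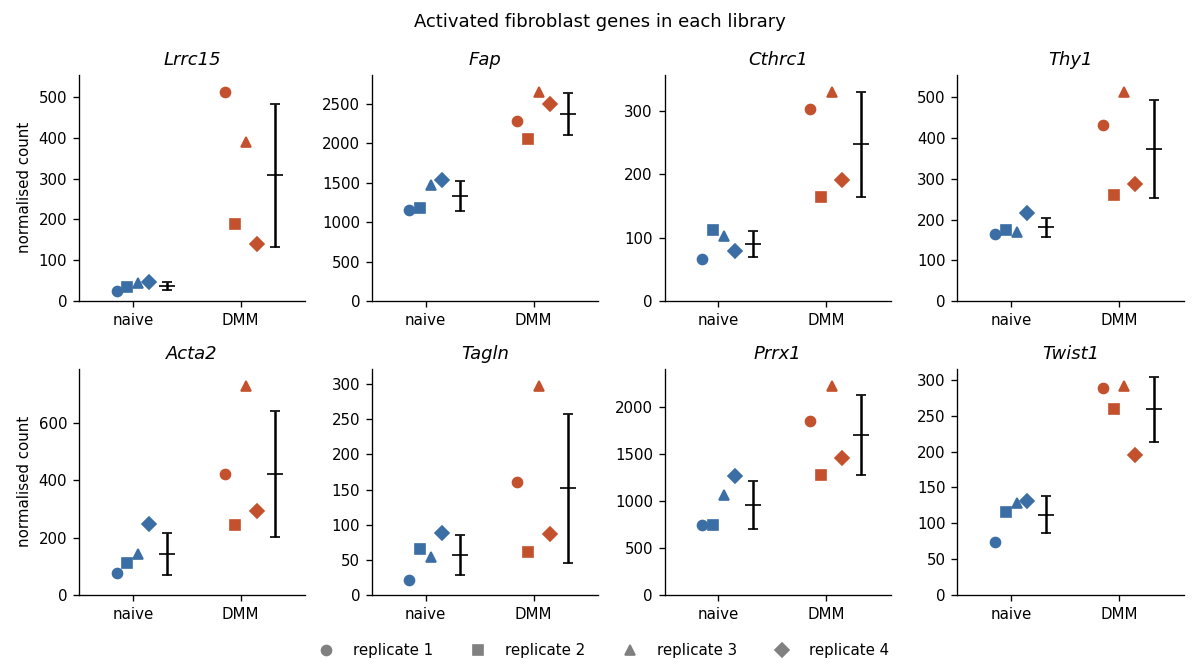
Normalised counts (vertical axes, from 0, each gene on its own scale) of the 8 genes in the 4 naive and 4 DMM libraries, with a marker shape for each replicate number and the mean with its SD in black. Naive and DMM values are apart for all genes except Acta2 and Tagln, and the DMM values of Lrrc15 spread from 139.0 to 513.3.

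Lrrc15 (chromosome 16, 30269302 to 30283256, minus strand, GRCm38) had the highest fold change of the group and the lowest level for its length. Its normalised counts, which are counts divided by a size factor for each library, were 25.5, 34.6, 42.8 and 47.6 in naive replicates 1 to 4. In DMM replicates 1 to 4 they were 513.3, 189.2, 389.4 and 139.0. The lowest DMM library thus lay 2.92 times above the highest naive library, while the highest and the lowest DMM library differed by 3.69 times. The log2 fold change was 3.04 (SE 0.37, n = 4 per group), or 8.21 fold. Without DMM replicate 1, which held the highest Lrrc15 count and most of the muscle transcripts, it was 2.68. The gene has 1 annotated transcript, and none of its 31-base words occur in another gene.

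Fap encodes fibroblast activation protein, a membrane-bound protease that cuts after proline (chromosome 2, 62500943 to 62574075, minus strand). It was abundant in both groups. Its normalised counts were 1151.1, 1173.4, 1464.1 and 1533.0 in the naive and 2276.4, 2054.3, 2654.9 and 2502.7 in the DMM libraries. The spread within a group was narrow, and the lowest DMM value was 1.34 times the highest naive one. The change was smaller than that of Lrrc15, with a log2 fold change of 0.83 (SE 0.14, n = 4 per group), or 1.78 fold.

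Cthrc1 encodes a secreted glycoprotein made by fibroblasts of injured arteries and scars (chromosome 15, 39076932 to 39087121, plus strand). It had 66.0, 111.8, 102.7 and 79.4 normalised counts in the naive and 302.7, 163.4, 330.1 and 190.4 in the DMM libraries. DMM replicates 1 and 3 were the high ones, as they were for Lrrc15. The log2 fold change was 1.46 (SE 0.26, n = 4 per group).

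Thy1 encodes CD90, a lipid-anchored surface glycoprotein of many stromal cells (chromosome 9, 44043384 to 44048579, plus strand). The naive libraries had 164.4, 174.3, 169.1 and 215.4 normalised counts and the DMM libraries 432.1, 261.2, 514.5 and 287.0, a log2 fold change of 1.05 (SE 0.22, n = 4 per group). DMM replicates 1 and 3 were again above replicates 2 and 4. Of 5 T cell markers (Cd3e, Cd3d, Cd3g, Trac and Cd2), 0 were called higher and Cd3d was called lower (log2 fold change -0.88, SE 0.27, DESeq2 adjusted p = 0.00915). Cd3g (0.34, SE 0.27), Trac (0.29, SE 0.38) and Cd2 (0.12, SE 0.36) went the other way and Cd3e was at -0.34 (SE 0.31), none of them called. Together the 5 markers held 0.00447% to 0.00822% of counts in naive and 0.00309% to 0.00596% in DMM libraries, with the highest counts in Cd3d.

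Acta2 encodes smooth muscle alpha-actin (chromosome 19, 34241090 to 34255590, minus strand). Its normalised counts were 78.3, 110.4, 141.3 and 246.0 in the naive and 420.5, 242.9, 731.0 and 291.5 in the DMM libraries. The groups overlapped, since DMM replicate 2 lay just under naive replicate 4. The log2 fold change was 1.55 (SE 0.49, n = 4 per group), and the call was lost without naive replicate 2, at a log2 fold change of 1.44. Only 1.39% of its 31-base words are shared with other genes, which include the cytoplasmic actin gene Actg1.

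Tagln encodes transgelin, an actin-binding protein of smooth muscle (chromosome 9, 45929619 to 45936058, minus strand). It had 21.1, 65.2, 53.5 and 88.4 normalised counts in the naive libraries. In the DMM libraries there were 160.9, 61.3, 298.0 and 86.6. DMM replicates 2 and 4 lay within the naive range, and the high mean came from replicates 1 and 3. The log2 fold change was 1.41 with a wide SE of 0.63 (n = 4 per group), and it was 0.86 without DMM replicate 3. It became a call only without DMM replicate 2, at 1.68, among the 8 fits that left out 1 library.

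The Tagln count is also uncertain because of its position. Of its 31-base words, 62.2% occur in other genes, with 58.2% in Gm48529, an annotated antisense transcript, and 3.9% in Pcsk7, both of which overlap it on the other strand. Whether counting used the strand was not given in the sources used here. The counts assigned to Gm48529 were 34.3 to 44.2 in naive and 38.8 to 54.7 in DMM libraries, a log2 fold change of 0.22 (SE 0.26), and those of Pcsk7 differed by 0.03 (SE 0.11). Neither was called.

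Prrx1 encodes a homeobox factor of limb mesenchyme (chromosome 1, 163245119 to 163313710, minus strand). Normalised counts were 748.4, 741.0, 1069.2 and 1266.5 in the naive and 1856.0, 1280.3, 2230.1 and 1454.0 in the DMM libraries. The groups only just parted, with DMM replicate 2 at 1.01 times naive replicate 4. The log2 fold change was 0.83 (SE 0.21, n = 4 per group).

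Twist1 encodes a basic helix-loop-helix factor that acts with E proteins in early mesenchyme (chromosome 12, 33957671 to 33959829, plus strand). It had 73.9, 115.7, 128.4 and 130.4 normalised counts in the naive and 289.4, 260.1, 292.2 and 194.9 in the DMM libraries. The DMM values lay close together and above all naive ones. The log2 fold change was 1.22 (SE 0.22, n = 4 per group).

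Levels of different genes were compared per kilobase of the longest coding transcript. On this scale Fap was the most abundant in both groups, at 484 ± 71.4 in naive and 862 ± 95.5 normalised counts per kilobase in DMM libraries (SD, n = 4). Lrrc15 was the least abundant in both, at 7.09 ± 1.83 and 58.0 ± 32.9 (SD, n = 4). Prrx1, Thy1, Cthrc1, Acta2, Twist1 and Tagln followed Fap in that order in both groups, but each of these neighbours overlapped the next in range. The range of Lrrc15 lay under that of Tagln in naive libraries, at 4.80 to 8.97 against 13.2 to 55.5, and overlapped it in DMM libraries, at 26.2 to 96.7 against 38.4 to 186.8. With the length of all merged exons in place of the transcript, Fap, Tagln and Lrrc15 kept their places in both groups and the order of the 5 genes between Fap and Tagln changed.

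Most of the 8 genes were high and low in the same libraries. DMM replicate 3 had the highest DMM value for 7 of the 8 and DMM replicate 1 for Lrrc15. DMM replicate 2 was lowest for 6 and DMM replicate 4 for Lrrc15 and Twist1. Among naive libraries, replicate 4 was highest for 7 and replicate 1 lowest for 7. The median deviation from the group mean on the log2 scale was -0.46, -0.06, 0.17 and 0.31 in naive replicates 1 to 4 and 0.22, -0.48, 0.50 and -0.36 in DMM replicates 1 to 4. Myh11, Rgs5 and Pdgfra, genes of smooth muscle, pericytes and fibroblasts, were also highest in DMM replicate 3 and naive replicate 4.

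**Figure D2:**
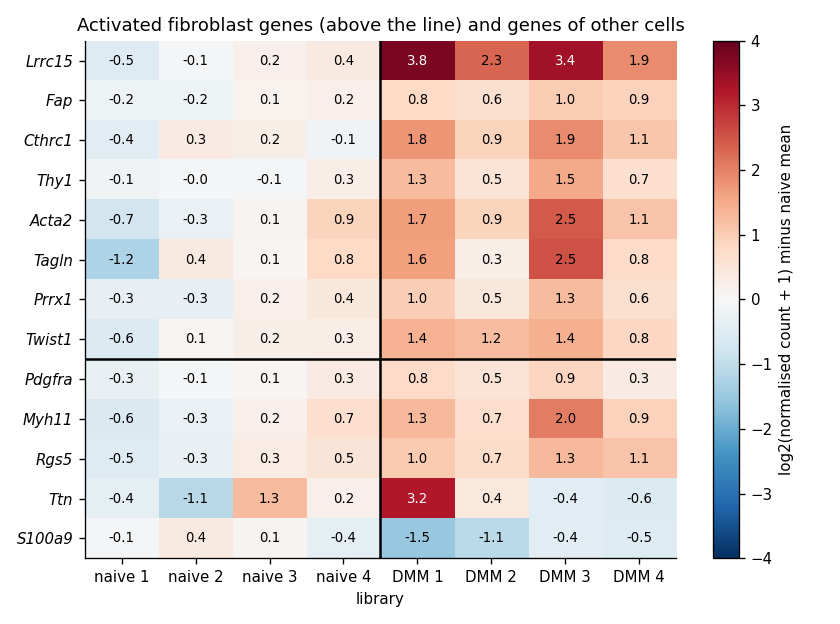
Log2(normalised count + 1) minus the mean of the naive libraries (colour and printed value) for the 8 genes and for Pdgfra (fibroblast), Myh11 (smooth muscle), Rgs5 (pericyte), Ttn (skeletal muscle) and S100a9 (neutrophil) in each library. The 8 genes and Myh11 are highest in DMM replicates 1 and 3, except that Fap is higher in DMM replicate 4 than in replicate 1, whereas Ttn is highest in DMM replicate 1 and the other DMM libraries lie within its naive range.

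Pdgfra, the receptor commonly used to recognise fibroblasts, was itself called higher (log2 fold change 0.62, SE 0.16, DESeq2 adjusted p = 0.00183). Counts of the group were therefore also set against Pdgfra in the same library. Lrrc15 had 2.29 to 2.96 counts per 100 counts of Pdgfra in naive and 7.93 to 21.7 in DMM libraries, so its ratio was 5.14 times higher on average and the groups did not overlap. The ratio of Twist1 to Pdgfra, at 6.64 to 8.94 in naive and 11.1 to 13.0 in DMM libraries, was 1.51 times higher and also did not overlap. For the other 6 genes the ratios overlapped between the groups, although the means of several differed by more than that of Twist1. They were 1.93 times higher in DMM for Acta2, 1.72 for Cthrc1, 1.71 for Tagln, 1.31 for Thy1, 1.17 for Fap and 1.16 for Prrx1. The share of all genes whose ratio to Pdgfra parts the groups was not computed. Lrrc15 was also selected on this contrast, so nothing is read from which ratios separated.

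Lrrc15 was also set against other fibroblast transcripts. Per 100 counts of Fap it had 2.21 to 3.11 counts in naive and 5.55 to 22.6 in DMM libraries. Per 100 counts of Col1a1, the main collagen gene of bone and fibrous tissue, it was 3.11 times higher in DMM, with no overlap. Cthrc1 per 100 counts of Col1a1 differed by 1.13 times, with overlap. Fap and Pdgfra per 100 counts of Col1a1 were lower in DMM on average, at 0.720 and 0.611 times the naive mean, both with overlap. These ratios share the counts already described and were not tested.

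**Figure D3:**
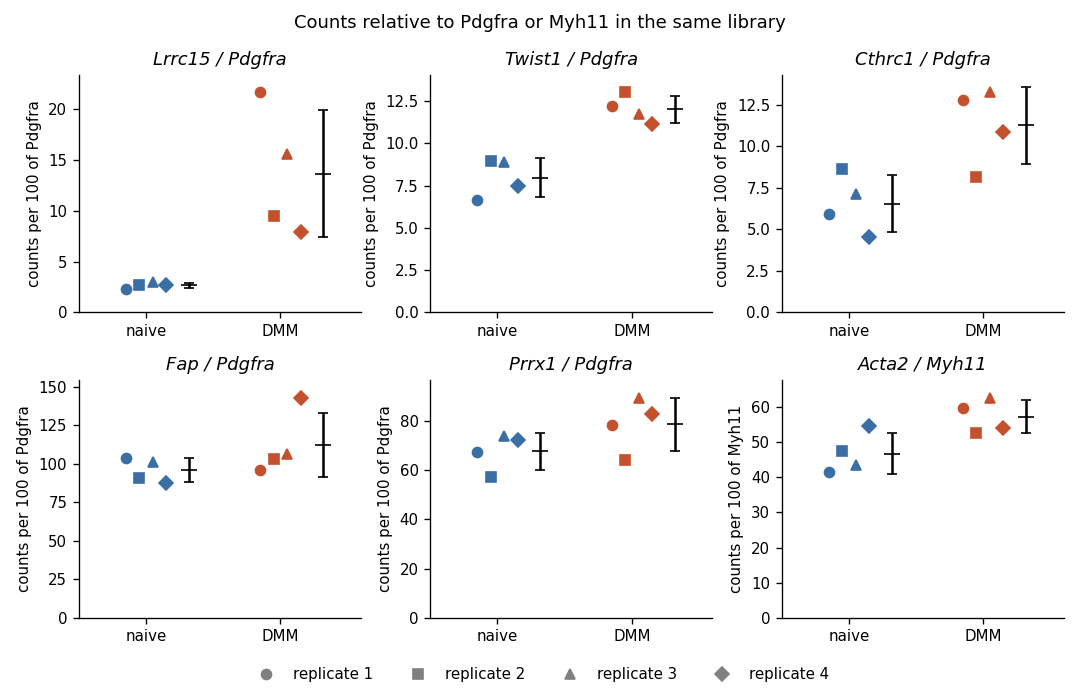
Counts of 5 of the genes per 100 counts of Pdgfra, and of Acta2 per 100 counts of Myh11, in each library (vertical axes from 0), with a marker shape for each replicate number and the mean with its SD in black. Lrrc15 and Twist1 separate the groups after division by Pdgfra, whereas Cthrc1, Fap and Prrx1, and Acta2 after division by Myh11, overlap.

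Genes of the vessel wall were counted beside the contractile genes. The 8 genes listed for smooth muscle were not shown here to be restricted to it. The list median was 0.76, and over all genes tested 7.75% were called higher and 5.92% lower. Of the 8, Myh11, the smooth muscle myosin heavy chain, was the single one called higher (log2 fold change 1.26, SE 0.30, DESeq2 adjusted p = 0.000510). That call was lost without naive replicate 2, while 3 genes of the list were called without naive replicate 4 and 2 without DMM replicate 2 or DMM replicate 4. Smtn passed the adjusted p but not the fold (0.42, SE 0.09, DESeq2 adjusted p = 0.000102). Synpo2 (0.56, SE 0.25) and Lmod1 (0.96, SE 0.43) did not pass. The 8 genes together, none of them at 0 in any library, held 0.00972% to 0.0135% of counts in naive and 0.0168% to 0.0242% in DMM libraries (two-sided exact permutation test, p = 0.0286, the smallest value that 4 against 4 allows, and 0.0629 after adjustment over 11 marker lists). Smtn had the highest counts in this sum, with mean normalised counts of 1116 in naive and 1494 in DMM libraries. Those of Myh11 were 299 and 717.

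Of the pericyte and mural cell markers, 6 of the 8 tested were called higher and 0 lower, with a list median of 0.79. The shares over all genes tested were 7.75% higher and 5.92% lower. The markers called higher included Notch3 (1.03, SE 0.16, DESeq2 adjusted p = 4.41e-08), Rgs5 (1.0, SE 0.22, DESeq2 adjusted p = 9.00e-05), Pdgfrb (0.68, SE 0.15, DESeq2 adjusted p = 0.000132) and Cspg4 (0.85, SE 0.19, DESeq2 adjusted p = 0.000225). The 9 listed markers held 0.0273% to 0.0479% of counts in naive and 0.0660% to 0.0724% in DMM libraries (two-sided exact permutation test, p = 0.0286, adjusted p = 0.0629). Per 100 counts of Myh11, Acta2 had 41.5 to 54.7 counts in naive and 52.7 to 62.7 in DMM libraries, and Tagln 11.4 to 27.8 and 13.2 to 25.5. Both ranges overlapped, and the part of vessel wall cells in the Acta2 and Tagln values was not tested.

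Actin and myosin genes that most cells use gave 1 call in each direction, shares near those over all genes tested (7.75% higher and 5.92% lower). Of 14 such genes, Cnn3, a calponin, was called higher (0.94, SE 0.14, DESeq2 adjusted p = 9.86e-09) and Myl9, a myosin light chain named here after its value was seen, was called lower (-0.74, SE 0.21, DESeq2 adjusted p = 0.00330). The list median was -0.28. Tagln2, the broadly expressed relative of Tagln, had a log2 fold change of -0.49 (SE 0.12) and Actb one of -0.47 (SE 0.13), and Cald1 had one of 0.43 (SE 0.10), all under the fold threshold. Myl9 was not called when libraries were scaled by total count.

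Serum response factor, which binds the CArG box, and its coactivators gave 0 calls among 4 genes. Log2 fold changes were -0.09 (SE 0.12) for Srf, -0.30 (SE 0.31) for Myocd, -0.22 (SE 0.15) for Mrtfa and 0.45 (SE 0.13) for Mrtfb. Mrtfb passed the adjusted p (DESeq2 adjusted p = 0.00395) but not the fold. It was the 1 gene of the 4 with an unadjusted p under 0.05 in DESeq2, and edgeR and limma-voom also called 0.

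Most of the other genes listed for activated fibroblasts were called higher in DMM. Of 16 such genes, 14 were called higher and 1 lower, and the list median was 1.21. Over all genes tested, 7.75% were called higher and 5.92% lower. The list was chosen with earlier results of these data known, so nothing is read from its count. Collagen genes led by adjusted p, with Col5a1 (1.48, SE 0.22, DESeq2 adjusted p = 3.26e-09), Col1a2 (1.22, SE 0.18, DESeq2 adjusted p = 6.62e-09) and Col1a1 (1.23, SE 0.20, DESeq2 adjusted p = 4.53e-08). Grem1, an antagonist of bone morphogenetic proteins, was the one called lower (-1.69, SE 0.27, DESeq2 adjusted p = 4.63e-08), and Mmp11, named after its value was seen, was not called (0.46, SE 0.27). Bone cells also make type I and type V collagen, and all 8 osteoblast and osteocyte markers were called higher, among them Alpl (1.33, SE 0.18, DESeq2 adjusted p = 1.98e-11).

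Of 9 genes of resting fibroblasts, 6 were called higher and 0 lower, where 7.75% of all genes tested were called higher and 5.92% lower. The median log2 fold change of the list was 1.01. Col15a1, a basement membrane collagen, rose most clearly (1.82, SE 0.23, DESeq2 adjusted p = 6.51e-13), followed by Dcn, which encodes decorin (1.3, SE 0.23, DESeq2 adjusted p = 7.76e-07), and Ly6a (1.01, SE 0.23, DESeq2 adjusted p = 0.000249). The 3 not called were named after their values were seen. Pi16, a defining gene of these cells, had lower values in every DMM library than in any naive one but missed the fold threshold (-0.35, SE 0.11, DESeq2 adjusted p = 0.00966), and Cd34 (0.28, SE 0.22) and Clec3b (0.98, SE 0.49) did not pass the adjusted p. The count fell to 3 without naive replicate 1, DMM replicate 1 or DMM replicate 3. Synovial lining fibroblast genes gave 1 call of 6, Has1, a hyaluronan synthase (1.19, SE 0.37, DESeq2 adjusted p = 0.0106), and their median was -0.32. That call was lost with edgeR and limma-voom, and without naive replicate 1 or DMM replicate 3.

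Mesenchymal factors listed beside Prrx1 and Twist1 were called higher in 6 of the 11 cases tested and lower in 0, with a list median of 0.62. Over all genes tested, 7.75% were called higher. The 5 not called, named after their values were seen, were Zeb1 (0.50, SE 0.13), Zeb2 (0.02, SE 0.10), Tcf3 (-0.08, SE 0.23), Tcf4 (0.48, SE 0.12) and Tcf12 (0.24, SE 0.08). Of these, Zeb1, Tcf4 and Tcf12 passed the adjusted p but not the fold (DESeq2 adjusted p = 0.0017, 0.0011 and 0.0137), and Zeb2 and Tcf3 passed neither. Twist2, the paralogue of Twist1, received no adjusted p (0.41, SE 0.57). The clearest were Osr2 (1.62, SE 0.33, DESeq2 adjusted p = 3.22e-05), Snai1 (1.14, SE 0.24, DESeq2 adjusted p = 7.65e-05), Prrx2 (1.53, SE 0.35, DESeq2 adjusted p = 0.000229) and Meox1 (1.32, SE 0.33, DESeq2 adjusted p = 0.000875), all of which act in embryonic mesenchyme. Prrx2, the paralogue of Prrx1, was the scarcer of the pair in every library, with Prrx1 at 1719 to 4054 counts per 100 of Prrx2 in naive and 916 to 1810.0 in DMM libraries.

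The peptidases related to Fap gave 0 calls among 6 genes. The median of this list was -0.01, and log2 fold changes for those named were -0.30 (SE 0.28) for Dpp10, 0.13 (SE 0.18) for Dpp4, the closest relative of Fap, -0.06 (SE 0.12) for Dpp9 and 0.16 (SE 0.49) for Dpp6. None of the 6 had an unadjusted p under 0.05 in DESeq2, and edgeR and limma-voom called 0.

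TGF-beta is the best known inducer of myofibroblast genes. The list of 15 ligands, receptors, Smads and response genes had a median of 0.54. Of the 15, 7 were called higher and 0 lower, where 7.75% of all genes tested were called higher and 5.92% lower. The ligand genes Tgfb2 (1.25, SE 0.28, DESeq2 adjusted p = 0.000171) and Tgfb3 (1.09, SE 0.23, DESeq2 adjusted p = 5.65e-05), named after their values were seen, were among them. So were the signal transducer Smad3 (0.59, SE 0.12, DESeq2 adjusted p = 2.14e-05) and the feedback gene Skil (0.60, SE 0.12, DESeq2 adjusted p = 3.84e-05). The receptor gene Tgfbr2 stayed under the fold threshold (0.54, SE 0.11, DESeq2 adjusted p = 1.82e-05). Of the 15 genes, 8 were not called. Among these were the ligand gene Tgfb1 (-0.01, SE 0.12) and the response genes Ccn2 (0.12, SE 0.20) and Tgfbi (0.16, SE 0.13), named after their values were seen.

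**Figure D4:**
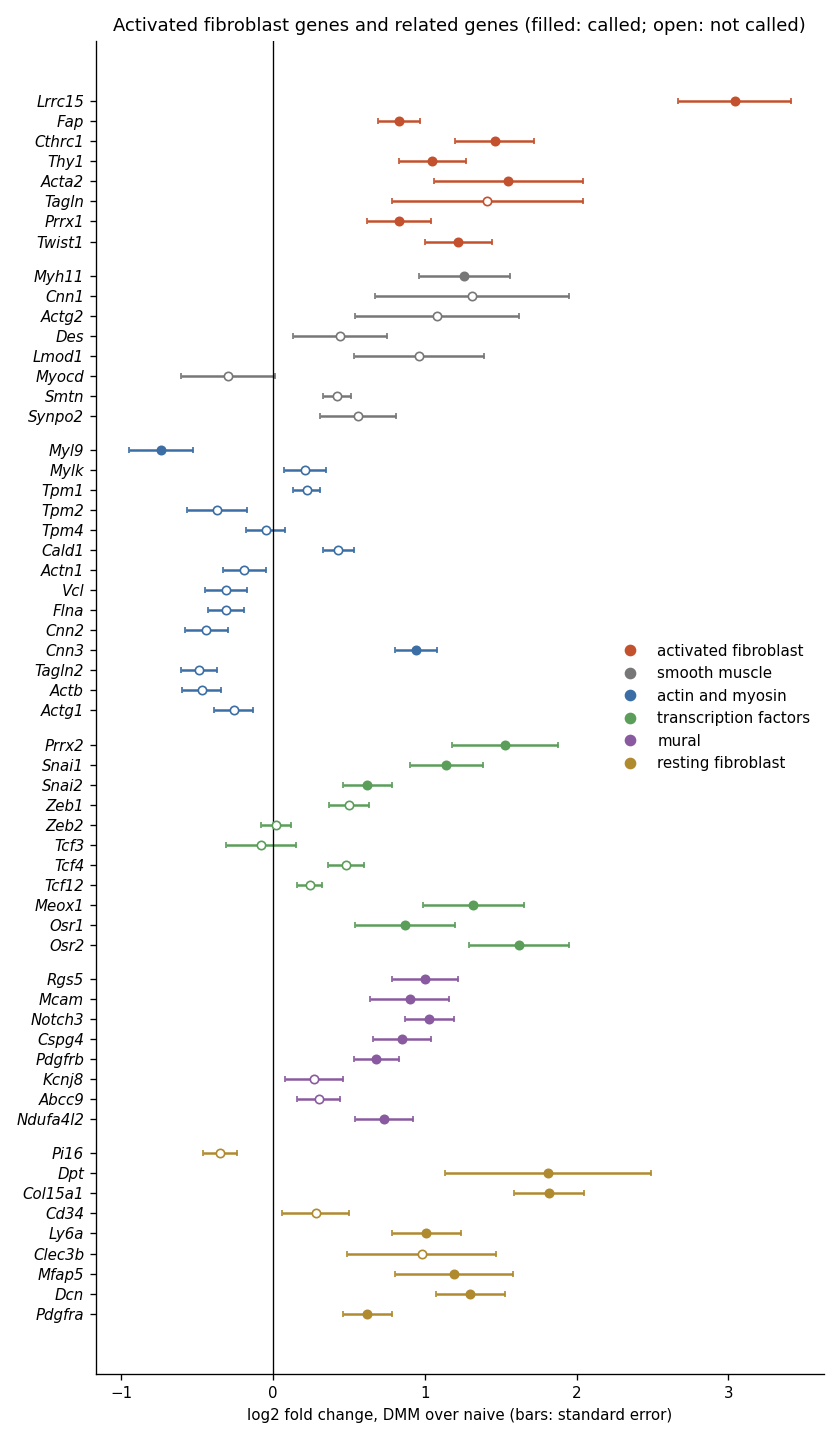
Log2 fold change of DMM over naive (horizontal axis) with its SE for the 8 genes and for every gene with an adjusted p from 5 other lists, filled where called and open where not. Lrrc15 lies farthest to the right at 3.04, Tagln has an open point with a wide bar, and the actin and myosin genes lie on both sides of 0.

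The genes with the library profile most like Lrrc15 were sought among the 13814 protein-coding genes whose normalised count averaged 20 or more. The measure was the root mean square distance between log2(normalised count + 1) values over the 8 libraries, each centred on its mean. The nearest were Hmcn1 (0.37), Angptl1 (0.38), Emilin3 (0.42), Megf6 (0.42) and Mmp3 (0.43), of which Hmcn1 and Emilin3 encode matrix proteins and Mmp3 a matrix-degrading protease. Hmcn1, for example, had 162.3 to 344.7 normalised counts in naive and 748.2 to 1895.9 in DMM libraries. Among the listed fibroblast genes Col3a1 ranked 7, Col15a1 12 and Aspn 13, all named after their ranks were seen. The other genes of the group were less alike, with Acta2 at rank 43, Cthrc1 at 58, Twist1 at 111, Tagln at 134, Thy1 at 221, Prrx1 at 425 and Fap at 663. A short distance needs a large change between the groups, so this order partly restates the fold changes.

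**Figure D5:**
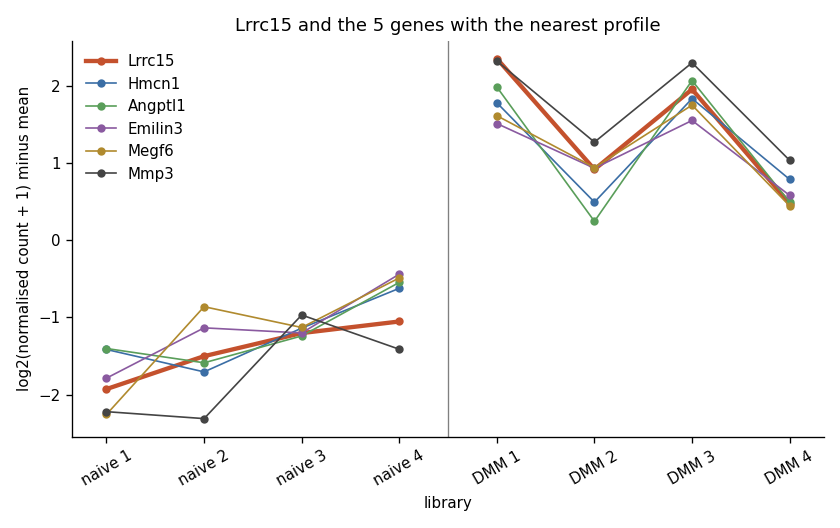
Log2(normalised count + 1) minus its mean over the 8 libraries for Lrrc15 (thick line) and the 5 genes with the nearest profile; the lines join the values of 1 gene within a group and do not show an order of replicates. The 5 genes follow Lrrc15 with high values in DMM replicates 1 and 3 and lower ones in DMM replicates 2 and 4.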

How the data were processed

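Cartilage RNA of 4 naive and 4 DMM mice was sequenced, 1 mouse per library per the methods of the study, so p-values measure the spread between these mice. The deposited table holds estimated counts per gene, which the authors made by trimming with Trimmomatic, pseudo-aligning with kallisto and summing to genes with tximport, and 39.2% of the values are not whole. The build behind the table is uncertain, since the methods pair GRCm38 with an Ensembl release of a later assembly and the labels list a human build. The labels and the methods also name different library kits. Gene names and coordinates come from GENCODE vM21 (GRCm38), which named 48855 of the 50462 identifiers, and promoters from RefSeq.

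Counts were rounded and tested over all genes by the Wald test of DESeq2 (version 1.42.0, R 4.3.3), with median-of-ratios factors, default filters and no covariates, and with Benjamini-Hochberg adjustment. The alternatives were edgeR version 4.0.16 (quasi-likelihood), limma-voom (limma version 3.58.1), TMM and total count scaling, filterByExpr, no fold threshold, the replicate number as a block, and leaving out each library. Summed marker counts were compared as percentages of the total count by a two-sided exact permutation test over 70 assignments. The script was tested on simulated data.

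The group and all lists were chosen with earlier results of these data known. Nothing is therefore read from how many of their genes were called, where 7.75% of all genes tested were called higher and 5.92% lower. All 8 genes of the group were named. From each other list, names were taken from the 4 genes with the smallest adjusted p, or from all where 5 or fewer were tested, unless the text says otherwise, and 1 such gene is not reported here. Same-numbered libraries did not deviate together (correlations 0.0498, 0.058, -0.119 and 0.117 over 18403 genes), so replicate numbers were not taken as pairs.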

Additional observations from a re-analysis of the deposited data

Results flagged for a closer look

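Of 50 groups of 4 values examined (the 8 genes, the 5 genes nearest to Lrrc15, 11 marker lists and the total count in each group), 3 held a library whose gap to the next exceeded Dixon's 95% critical value as a share of the group's range, and chance gives about 2.5. No gene of the group was among them. Skeletal muscle markers held 0.0256% of counts in DMM replicate 1 and 0.00153% to 0.00332% in the other DMM libraries, and DMM replicate 1 also had the highest Lrrc15 count (513.3 normalised counts). Without that library the log2 fold change of Lrrc15 was 2.68, given as a description since Lrrc15 was selected on this contrast, and the part of muscle in its count was not tested. Marrow stromal markers held 0.1346% of counts in DMM replicate 2 and 0.0816% to 0.0890% in the other DMM libraries. In naive replicate 1 they held 0.103%, against 0.0760% to 0.0786% in the other naive libraries. These are the libraries in which most of the 8 genes were lowest in their group, with 6 of 8 in DMM replicate 2 and 7 of 8 in naive replicate 1. A part of marrow stroma in those values was not tested.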

How the results depend on the processing

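The 8 genes had a positive log2 fold change under every alternative, and 7 were called with edgeR, limma-voom, TMM factors, total count scaling, filterByExpr and no fold threshold. Leaving out 1 library gave 6 to 8 calls, with log2 fold changes of 2.68 to 3.28 for Lrrc15, 0.77 to 0.91 for Fap, 1.29 to 1.62 for Cthrc1, 0.86 to 1.19 for Thy1, 1.15 to 1.94 for Acta2, 0.86 to 1.71 for Tagln, 0.68 to 1.0 for Prrx1 and 1.05 to 1.33 for Twist1. With the replicate block, which rests on shared numbers alone, 8 were called, Tagln included at 1.31, and 2081 genes in all; it raised the synovial lining calls to 2. Scaling by total count gave a median over all genes of 0.14 (log2) and shifted the split of calls to 2030 higher and 489 lower, from 1377 and 1052. It gave 2 smooth muscle, 1 actin and myosin, 1 serum response factor and 2 synovial lining calls. Without a fold threshold there were 4010 calls in all, 2 of smooth muscle, 7 of actin and myosin (2 higher and 5 lower) and 1 of the serum response factor genes. Synovial lining genes had 0 calls with edgeR and limma-voom. Leaving out 1 library gave 0 to 3 smooth muscle calls (0 without naive replicate 2, 3 without naive replicate 4), 3 to 7 resting fibroblast and 0 to 2 synovial lining calls. The causes of these shifts were not tested. With 4 mice a group, the exact test cannot pass 0.05 after adjustment unless 7 or more of the 11 lists reach its smallest p.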

Other observations

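Other cell types that could be caught in a cartilage cap gave the following values. Macrophage markers gave 0 calls of 5 with DESeq2, edgeR and limma-voom, and 1 of them, Adgre1, had an unadjusted p under 0.05. Log2 fold changes were 0.09 for Cd68, -0.25 for Adgre1, 0.20 for Csf1r, 0.00 for C1qa and -0.19 for Mrc1, each with an SE between 0.12 and 0.16. Summed, they held 0.0378% to 0.0401% of counts in naive and 0.0397% to 0.0462% in DMM libraries (two-sided exact permutation test, p = 0.0571, adjusted p = 0.105).

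Endothelial markers were mixed. Of 6, Cdh5 (0.63, SE 0.11, DESeq2 adjusted p = 5.61e-07) and Emcn, named after its value was seen, were called higher, and Vwf was called lower (-0.72, SE 0.19, DESeq2 adjusted p = 0.00200). The shares over all genes tested were 7.75% higher and 5.92% lower. Tek (0.57, SE 0.14, DESeq2 adjusted p = 0.000574) and Kdr (0.36, SE 0.12, DESeq2 adjusted p = 0.0139) passed the adjusted p but not the fold. Pecam1, named after its value was seen, was at -0.03 (SE 0.13). The summed share of the 6, with the highest counts in Vwf, was 0.0386% to 0.0452% in naive and 0.0428% to 0.0465% in DMM libraries (two-sided exact permutation test, p = 0.0857, adjusted p = 0.135).

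Marrow stromal markers gave 0 calls of 5 with DESeq2, edgeR and limma-voom, with 1, Adipoq, at an unadjusted p under 0.05 (log2 fold change 0.61, SE 0.28). The other 4 were at 0.05 for Cxcl12, 0.14 for Lepr, -0.02 for Kitl and 0.22 for Ebf3. The summed share differed by 1.18 times (two-sided exact permutation test, p = 0.371, adjusted p = 0.454). The shares called over all genes tested were 7.75% higher and 5.92% lower. All 7 neutrophil markers were called lower, among them Camp (-0.97, SE 0.20, DESeq2 adjusted p = 2.23e-05) and Mpo (-1.07, SE 0.23, DESeq2 adjusted p = 6.14e-05), and their summed share was 0.608 times the naive one (two-sided exact permutation test, p = 0.0286, adjusted p = 0.0629). The summed shares of chondrocyte and of osteoblast and osteocyte markers were 2.77 and 2.50 times those of naive libraries, with the same exact and adjusted p. Col2a1 had the highest counts in the chondrocyte sum, and of the 8 chondrocyte markers tested Col2a1, Acan and Sox9 were called higher and 0 lower. Matn3 (-0.29, SE 0.93) and Col9a1 (-0.36, SE 0.87), named after their values were seen, had negative log2 fold changes and were not called. The summed shares of synovial lining (0.760 times, exact p = 0.571), T cell (0.721 times, exact p = 0.200) and skeletal muscle markers (2.59 times, exact p = 0.600) gave larger p. Prg4 held most of the synovial lining counts, with mean normalised counts of 55410 in naive and 38200 in DMM libraries. Htra4 came next at 517 and 396. Prg4 was not called (-0.54, SE 0.42), and the part of cartilage cells in its counts was not tested. The skeletal muscle ratio turned to 0.704 without DMM replicate 1 and was 4.64 without naive replicate 3, and the synovial lining ratio turned to 1.02 without naive replicate 4.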
